A study of Homo sapiens with 6 samples.

Results

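Quinone and carbonyl reductases are enzymes that pass electrons, mostly from NADPH or NADH, to quinones or to carbonyl compounds such as aldehydes and ketones. The transcripts of 10 such genes were followed here: NQO1, NQO2, CBR1, CBR3, CBR4, PTGR1, PTGR2, DCXR, POR and CYB5R3. They were chosen by enzyme class, with earlier results of these data known. All 10 were found by gene symbol among the 35473 gene rows of the table. The RNA came from IMR32, a human neuroblastoma cell line, and was sequenced after polyA selection. Cells were given CBR-470-1, a small molecule, at 5 µM for 24 h, or DMSO, its solvent, for the same time and at matched volume. Each group had 3 biological replicates described by the submitters as independent, 6 libraries in all, and both groups were the same unmodified line. The series title connects glycolysis with KEAP1 and NRF2, and the question addressed here is which reductase transcripts differed after the compound.

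NQO1 reduces quinones directly to hydroquinones with NADH or NADPH as donor, which bypasses the reactive semiquinone. Its gene is a standard target of NRF2, a transcription factor that the adaptor KEAP1 marks for degradation and that electrophiles or oxidants release. CBR1, CBR3 and CBR4 belong to the short-chain dehydrogenase family, as does DCXR, and PTGR1 and PTGR2 to the medium-chain family. POR and CYB5R3 are flavoproteins that feed electrons to cytochrome P450 enzymes and cytochrome b5, and both can also reduce quinones by single-electron steps.

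Values are TPM, the length-scaled share of a gene's transcripts in its library, so that levels of different genes can be set side by side. The library columns summed to between 972453 and 973696 TPM. Read depth cannot be recovered from TPM, so precision rests on the 3 replicates alone and the depth is unknown. All 12 listed markers of adrenergic neuroblastoma, among them HAND2 and GATA3, were above 1 TPM on average, with summed levels of 3126 to 3407 TPM in DMSO and 3028 to 3069 TPM in CBR-470-1. Of these markers DBH and CHGA were called lower, and the summed ranges did not overlap. In bulk RNA, fewer cells of a type and less RNA per cell cannot be told apart. Blood markers (6 listed, 3 at 0 in every library) summed to at most 0.663 TPM, and epithelial markers (4 listed, 1 at 0 in every library) to at most 0.842 TPM. Of 6 fibroblast and endothelial markers, COL1A1 and PDGFRB were above 1 TPM on average and none was at 0 in every library. Their sum was 17.96 to 18.7 TPM in DMSO and 20.9 to 21.7 TPM in CBR-470-1, mostly from PDGFRB, and 0 of them were called. The part of these shifts in the results below was not tested.

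The promoter windows of NQO1, NQO2 and CBR1 are shown because these genes had the largest increases among the tested reductases. RefSeq windows (GRCh38.p14, from 250 bases before the transcript start to 50 bases after it) were at hand for 8 of the 10 genes, in 11 windows, and not for CBR3 and POR. Capitals mark matches to the core letters of the NRF2 element (TGACNNNGC) or of the AHR element (GCGTG), on either strand. NQO1 lies on the minus strand at chr16:69726511-69726810, NQO2 on the plus strand at chr6:2999644-2999943 and CBR1 on the plus strand at chr21:36069774-36070073.
NQO1: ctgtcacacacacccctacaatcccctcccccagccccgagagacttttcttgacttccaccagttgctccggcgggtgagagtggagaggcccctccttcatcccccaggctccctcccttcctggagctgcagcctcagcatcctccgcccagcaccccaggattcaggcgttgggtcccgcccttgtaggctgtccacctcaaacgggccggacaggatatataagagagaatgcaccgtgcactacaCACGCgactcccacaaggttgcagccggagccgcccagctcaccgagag
NQO2: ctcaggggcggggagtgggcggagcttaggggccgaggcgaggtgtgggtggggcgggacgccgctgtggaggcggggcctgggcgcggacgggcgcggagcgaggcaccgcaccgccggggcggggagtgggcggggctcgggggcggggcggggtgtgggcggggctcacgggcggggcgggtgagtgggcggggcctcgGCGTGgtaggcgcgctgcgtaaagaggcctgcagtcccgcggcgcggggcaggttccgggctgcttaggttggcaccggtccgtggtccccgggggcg
CBR1: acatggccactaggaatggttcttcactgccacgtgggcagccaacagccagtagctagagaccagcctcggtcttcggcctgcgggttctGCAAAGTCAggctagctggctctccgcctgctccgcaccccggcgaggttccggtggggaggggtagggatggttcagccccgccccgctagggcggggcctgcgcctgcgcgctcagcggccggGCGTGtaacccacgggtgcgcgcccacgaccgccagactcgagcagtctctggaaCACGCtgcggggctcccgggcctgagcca
The NQO1 window held no TGACNNNGC and 1 GCGTG match, on the opposite strand just after the start. The characterised NRF2 element of human NQO1 lies further upstream than this window reaches. The NQO2 window held 1 GCGTG match and no TGACNNNGC. The CBR1 window held 1 TGACNNNGC match, read on the opposite strand from base -159 to base -151 counted from the start, and 2 GCGTG matches. Among the 11 windows, 2 held TGACNNNGC, the other being the window of an alternative CYB5R3 start. For comparison, 13.3% of 35116 promoter windows of the same length held it. GCGTG was found in 6 of the 11 windows and in 36.5% of all windows. The NQO2 window was 80.3% G and C with 11 matches to the GC box letters GGGCGG (either strand, 1 base shared between some neighbours), against 62.7% and 3 matches for NQO1. GGGCGG was found in 45% of all windows and in 8 of these 11. Some genes had more than 1 window, and the PTGR2 windows overlap and share a GGGCGG match, which counts in both. These matches describe letters and not bound sites.

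NQO1 was the only reductase transcript called at a limma adjusted p under 0.05. It stood at 3.74, 4.93 and 5.31 TPM in the DMSO libraries and at 61.4, 66.6 and 70.6 TPM in the CBR-470-1 libraries. Every treated library was far above every control library, and the spread within each group was small beside the gap. The means were 4.66 ± 0.817 and 66.2 ± 4.59 TPM (SD, n = 3 each), a ratio of 14.2. On the log2(TPM + 1) scale, used for all tests and smaller than the true change where levels are low, NQO1 rose by 3.58 (SE 0.115, limma adjusted p = 2.67e-05, 95% interval 3.31 to 3.85). Of the 13470 genes abundant enough to test (mean of at least 1 TPM), NQO1 had the largest absolute log2 fold change at a pseudocount of 1 TPM, rank 1. That order turns with the scale: AKR1C3, an aldo-keto reductase of steroids and prostaglandins, had a TPM ratio of 19.6, and with a pseudocount of 0.1 TPM its log2 fold change was 3.98 beside 3.81 for NQO1. By level NQO1 moved from rank 10591 of those genes in DMSO to rank 2529 in CBR-470-1. The gene spans chr16:69706996-69726951 on the minus strand (GRCh38, GENCODE 29, ENSG00000181019.12), and values are given per gene symbol, so they do not resolve exons or UTRs. The antisense gene AC092115.2 shares 575 exonic bases with NQO1, and the library kit named in the labels does not mark strand, so reads of that stretch cannot be told apart.

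Of the 10 genes, 9 were abundant enough to test and CBR3 was not. NQO1 was the 1 that rose, and 0 fell, at a limma adjusted p under 0.05. Over all tested genes 1.13% (152) were called higher and 0.839% (113) lower, 1.97% together. That split was 124 higher and 237 lower with median centring, and 152 and 215 with a correction for GC content and length. The remaining 8 tested genes were not called, and their log2 fold changes lay between -0.21 and 0.36. The median over the 9 was 0.02, beside 0.03 over all genes tested. Without overlap between the groups were 6 of the 9, with 3 higher (NQO1, NQO2, CBR1) and 3 lower (CBR4, DCXR, CYB5R3). The same held for 30.2% of all tested genes, with 17.7% higher and 12.5% lower. At an unadjusted limma p under 0.05 there were 4 of the 9, namely NQO1, NQO2, CBR1 and DCXR. Over all tested genes the same held for 3163 of 13470.

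**Figure D1:**
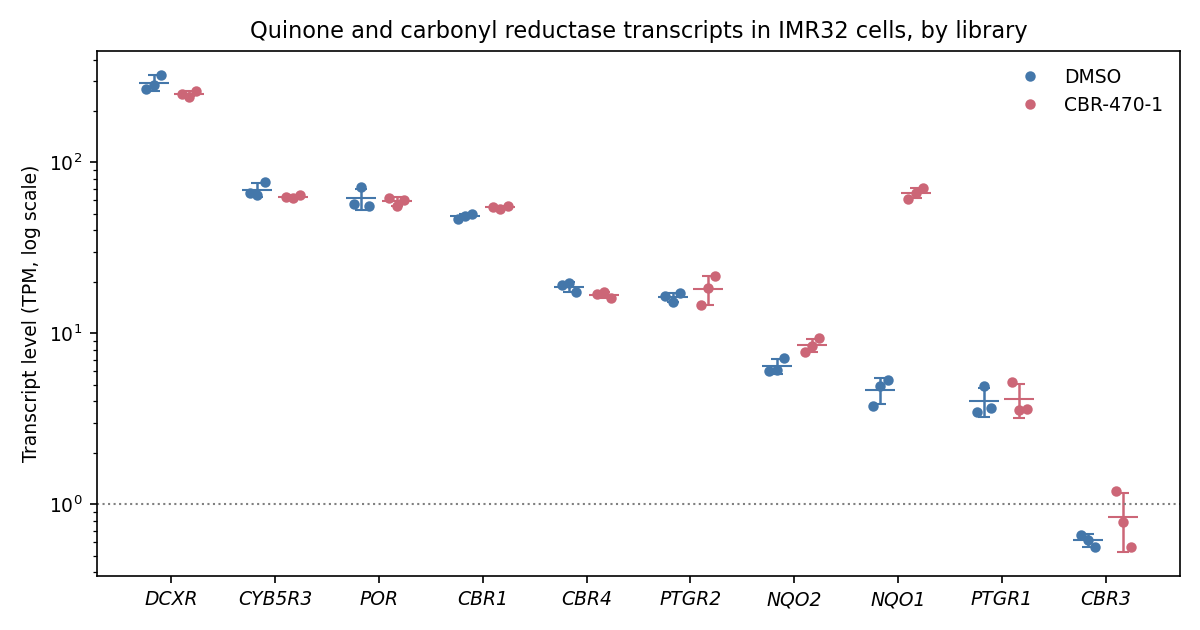
Transcript level in TPM (log axis) of the 10 reductase genes in each library, ordered by their DMSO mean, with points for the 3 replicates of each group, a horizontal tick for the mean and bars for the SD. NQO1 goes from 4.66 to 66.2 TPM on average, while the groups of the other genes lie close together; the dotted line is the minimum of 1 TPM for the test.

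**Figure D2:**
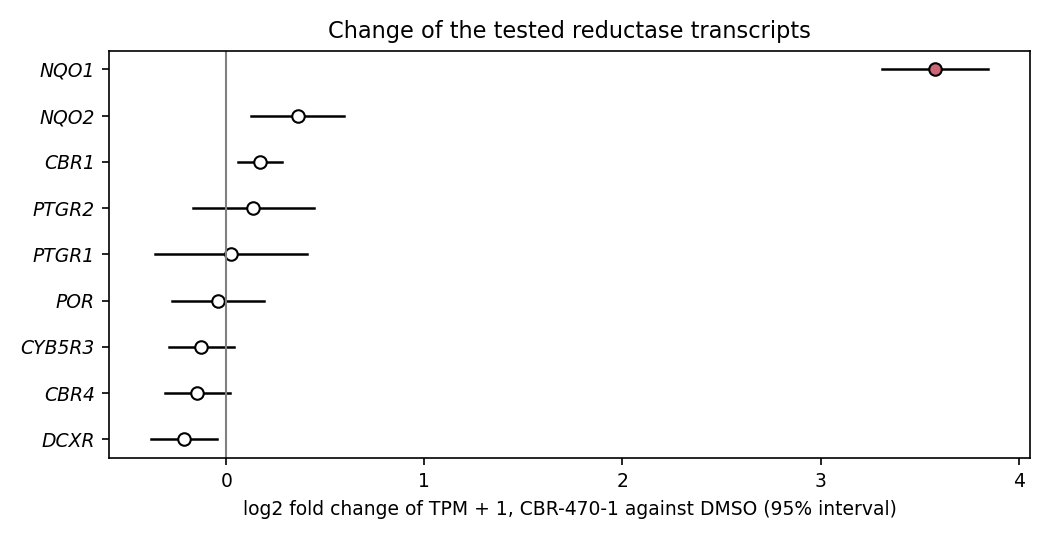
Log2 fold change of TPM + 1, CBR-470-1 against DMSO, for the 9 tested reductase genes, with unadjusted 95% intervals from limma; the filled point passed an adjusted p under 0.05. NQO1 stands at 3.58 and the other 8 lie between -0.21 and 0.36.

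NQO2 is the close relative of NQO1. It reduces quinones with dihydronicotinamide riboside and makes little use of NADPH or NADH. NQO2 was at 6.01, 6.09 and 7.19 TPM in DMSO and at 7.83, 8.39 and 9.38 TPM in CBR-470-1. All treated libraries were above all controls, but the gap between the groups was smaller than the spread within either. The means were 6.43 ± 0.659 and 8.53 ± 0.783 TPM, a ratio of 1.33. The log2 fold change was 0.36 (SE 0.101, unadjusted 95% interval 0.12 to 0.60) and did not pass in limma (adjusted p = 0.0983). NQO2 spans chr6:2987987-3028869 on the plus strand. Before treatment NQO1 was the less abundant of the pair, and after it the more abundant. The NQO1 to NQO2 ratio was 0.623, 0.810 and 0.738 in the DMSO libraries and 7.84, 7.93 and 7.53 in the CBR-470-1 libraries. The mean ratio went from 0.724 ± 0.0943 to 7.77 ± 0.213 (exact two-sided permutation p = 0.1, the smallest that 3 against 3 can give).

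CBR1, an NADPH-dependent reductase of prostaglandins, quinones and anthracycline drugs, was at 46.9, 48.8 and 49.7 TPM in DMSO and at 55.0, 53.7 and 55.5 TPM in CBR-470-1. The groups did not overlap and the replicates lay close together, with SDs of 1.46 and 0.936 TPM. The increase was small, from a mean of 48.5 to 54.7 TPM, a ratio of 1.13. Its log2 fold change of 0.17 (SE 0.0476, unadjusted 95% interval 0.06 to 0.28) did not pass in limma (adjusted p = 0.0972). With GC content and length corrected for, it was 0.19 and close to the threshold (limma adjusted p = 0.0549). CBR1 spans chr21:36069941-36073166 on the plus strand.

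CBR3, its close paralog with a narrower set of substrates, lies 61745 bases further along the same chromosome, at chr21:36134912-36146566 on the plus strand. CBR3 was the least abundant of the 10 genes, at 0.664, 0.621 and 0.559 TPM in DMSO and at 1.19, 0.784 and 0.562 TPM in CBR-470-1. CBR-470-1 replicate 1 was the highest and replicate 3 lay within the DMSO range, so the groups overlapped. CBR3 was under the minimum for the test. With no filter its log2 fold change was 0.18 (SE 0.134, limma adjusted p = 0.615). Transcripts of CBR1 outnumbered those of CBR3 per unit length by 79.3 ± 9.20 in DMSO and 71.1 ± 26.3 in CBR-470-1, and this ratio did not differ beyond its spread (exact two-sided permutation p = 0.6). The antisense gene CBR3-AS1 shares 493 exonic bases with CBR3. CBR3-AS1 stood at 2.42 ± 0.207 and 2.77 ± 0.525 TPM, above CBR3 in every library, and without strand reads of the shared stretch cannot be told apart.

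CBR4, a mitochondrial reductase that works in fatty acid synthesis in that organelle, was at 19.2, 19.6 and 17.4 TPM in DMSO and at 17.0, 17.4 and 16.1 TPM in CBR-470-1. The treated libraries were lower without overlap, but the lowest control and the highest treated library were almost equal. The means were 18.8 ± 1.19 and 16.8 ± 0.658 TPM, and the log2 fold change of -0.15 did not pass (SE 0.0698, unadjusted 95% interval -0.31 to 0.02, limma adjusted p = 0.256). Correcting for GC content and length gave -0.24 (limma adjusted p = 0.0746). CBR4 spans chr4:168863770-169010275 on the minus strand and shares 108 exonic bases with PALLD on the other strand.

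DCXR, which reduces L-xylulose and small dicarbonyls such as diacetyl, was the most abundant of the 10 genes in every library. DCXR was at 269.7, 283 and 327 TPM in DMSO and at 253, 243 and 260.3 TPM in CBR-470-1. All treated libraries were lower, and DMSO replicate 3 was the highest. The means were 293 ± 29.7 and 252 ± 8.84 TPM, a ratio of 0.860. The log2 fold change of -0.21 (SE 0.0712, unadjusted 95% interval -0.38 to -0.05) did not pass in limma (adjusted p = 0.136), and it was -0.13 without DMSO replicate 3 and -0.11 when GC content and length were corrected for. DCXR spans chr17:82035136-82037732 on the minus strand. Its nearest coding neighbour, the small GTPase gene RAC3, lies 931 bases away and stood at 153 ± 10.4 and 129.7 ± 4.80 TPM (log2 fold change -0.24, limma adjusted p = 0.0781).

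PTGR1 reduces 15-oxo-prostaglandins, oxidises leukotriene B4 and saturates reactive alkenals. It was at 3.46, 4.91 and 3.68 TPM in DMSO and at 5.18, 3.57 and 3.59 TPM in CBR-470-1. Each group held 1 high library (DMSO replicate 2 and CBR-470-1 replicate 1) and the groups overlapped. The log2 fold change of 0.02 (SE 0.164, unadjusted 95% interval -0.36 to 0.41, limma adjusted p = 0.947) had no stable sign, being -0.01 with median centring, -0.02 with quantile normalization and -0.04 once corrected for GC content and length. PTGR1 spans chr9:111549722-111599893 on the minus strand. PTGR2, which also reduces 15-oxo-prostaglandins, was at 16.5, 15.2 and 17.2 TPM in DMSO and at 14.6, 18.4 and 21.5 TPM in CBR-470-1. The treated libraries spread on both sides of the controls. PTGR2 had a change of 0.14 on the log2 scale (SE 0.130, unadjusted 95% interval -0.17 to 0.44, limma adjusted p = 0.559), with 0.01 without CBR-470-1 replicate 3, 0.28 without replicate 1 and 0.04 once corrected for GC content and length. PTGR2 spans chr14:73851844-73886827 on the plus strand and shares 211 exonic bases with the zinc finger gene ZNF410 on the same strand, so its reads could be split between both.

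POR hands electrons from NADPH to microsomal cytochrome P450 enzymes, haem oxygenase and squalene epoxidase. POR was at 57.2, 71.7 and 55.8 TPM in DMSO and at 62.3, 55.6 and 60.3 TPM in CBR-470-1. DMSO replicate 2 stood above all others and the groups overlapped. The log2 fold change of -0.04 (SE 0.0996, unadjusted 95% interval -0.28 to 0.19, limma adjusted p = 0.822) changed sign when replicate 2 of either group was left out (0.07 for DMSO, 0.00307 for CBR-470-1) and when corrected for GC content and length (0.01). POR spans chr7:75899200-75986855 on the plus strand. CYB5R3, which keeps cytochrome b5 reduced with NADH, was at 66.1, 64.7 and 76.7 TPM in DMSO and at 62.6, 62.2 and 64.5 TPM in CBR-470-1. The highest treated library was just under the lowest control, and DMSO replicate 3 stood apart. The log2 fold change of -0.13 (SE 0.0701, unadjusted 95% interval -0.29 to 0.04) did not pass in limma (adjusted p = 0.321), and it was -0.05 without DMSO replicate 3 and -0.08 with GC content and length corrected. CYB5R3 spans chr22:42617840-42649568 on the minus strand.

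The make-up of the reductase transcripts differed most between the groups in NQO1 and in DCXR. NQO2, CBR1 and CYB5R3 differed less, also without overlap. Their mean shares in DMSO and CBR-470-1 were 1.23% and 1.57%, 9.28% and 10.1%, and 13.2% and 11.6%. NQO1 made up 0.764%, 0.949% and 0.947% of the summed TPM of the 10 genes in the DMSO libraries and 11.4%, 12.6% and 12.5% in the CBR-470-1 libraries. By mean level it moved from 8th place to 2nd place among the 10. DCXR made up the largest share in both groups, at 56.0% ± 2.04 in DMSO and 46.3% ± 0.497 in CBR-470-1. With NQO1 left out of the sum, the DCXR share was 56.5% ± 2.08 and 52.8% ± 0.260. All 10 together summed to 523 ± 35.4 TPM in the DMSO group and to 544 ± 16.8 TPM in the treated group. The 9 without NQO1 summed to 519 ± 34.7 and 478 ± 14.5 TPM. These shares are a description and were not tested. Within the CBR-470-1 libraries NQO1 was above CYB5R3 in 2 of 3, above POR in 2 of 3 and above CBR1 in 3 of 3, so its order against CYB5R3 and POR varied. CYB5R3 was above POR in 3 of 3 of these libraries and in 2 of 3 DMSO libraries. Within the DMSO libraries NQO1 was above PTGR1 in 3 of 3 and below NQO2 in 3 of 3.

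**Figure D3:**
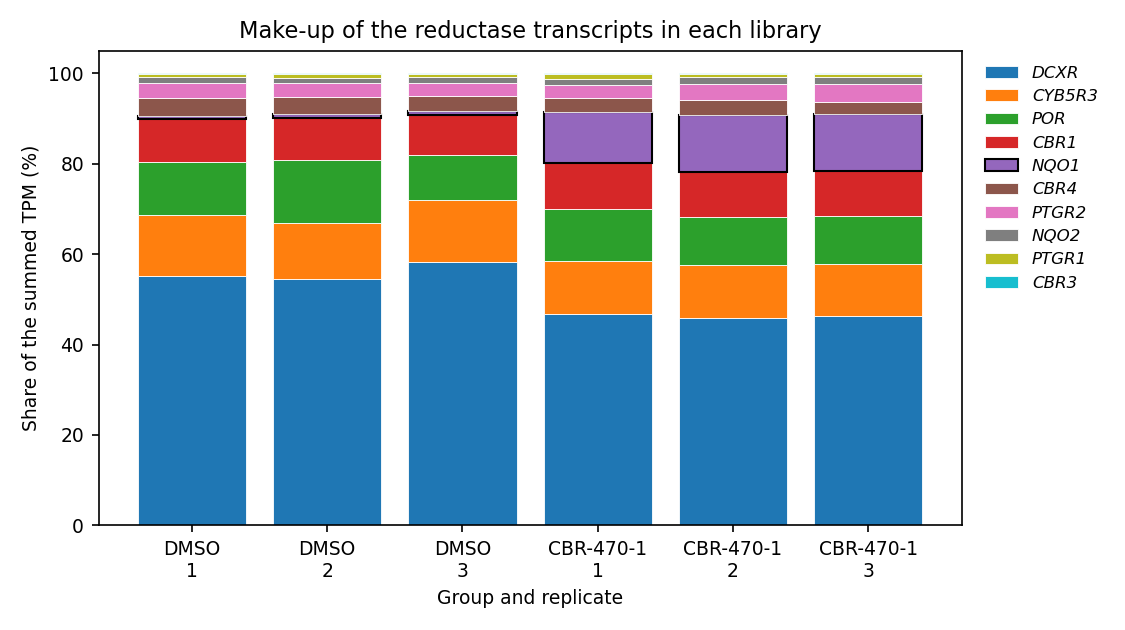
Share of each gene in the summed TPM of the 10 reductase genes (vertical axis, %), in each of the 6 libraries by group and replicate. The NQO1 segment, outlined in black, goes from 0.887% to 12.2% on average, and the DCXR segment from 56.0% to 46.3%.

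Expression profiles like that of NQO1 were ranked as a description only. Profiles over the 6 libraries were centred on their DMSO means and compared by root mean square distance in log2 units. Since NQO1 had the largest rise at this pseudocount, the order of the 5 nearest genes is also their order by log2 fold change, and the distance shows nothing beyond it. AKR1C3 was closest at 0.747. AKR1C3 stood at 0.266, 0.509 and 0.276 TPM in DMSO and at 5.70, 6.92 and 8.05 TPM in CBR-470-1, and it rose by 2.54 on the log2 scale (SE 0.150, limma adjusted p = 0.00118). It reached the 1 TPM minimum only through the treated libraries. Next came SNORD93 at a distance of 1.11, which was listed at 0 in all DMSO libraries and whose call was lost without 5 of the 6 libraries in turn. SEPT14P4, MIR93 and MIR1267, at distances of 1.25, 1.46 and 1.53, did not pass (limma adjusted p between 0.0604 and 0.0748). SNORD93, MIR93 and MIR1267 also reached the 1 TPM minimum only through the treated libraries. Small RNA and pseudogene rows of this kind are uncertain in polyA-selected libraries.

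Around NQO1 the neighbouring genes did not pass the test. NFAT5, 2329 bases away on the other strand, stood at 3.33 ± 0.613 and 4.70 ± 1.02 TPM (log2 fold change 0.39, limma adjusted p = 0.215). NOB1 on the other side stood at 49.98 ± 2.60 and 56.5 ± 3.41 TPM (log2 fold change 0.17, limma adjusted p = 0.165). Over all 10 reductase loci, 21 overlapping or nearest coding genes other than the reductases were tested, of which 1 was called higher and 0 lower. Among all tested genes 1.13% were called higher and 0.839% lower. The called gene was DNAJC25 beside PTGR1, from 6.22 ± 0.253 to 8.83 ± 0.141 TPM (log2 fold change 0.45, limma adjusted p = 0.0364), and its call was lost when any of the 6 libraries was left out. The 6 tested genes that overlap a reductase gene were SETD4, CBR3-AS1, PALLD, ZNF483, ZNF410 and TMEM120A, and 0 of them were called. SETD4, which overlaps CBR1 on the other strand without shared exonic bases, changed by 0.08 on the log2 scale without passing (limma adjusted p = 0.600).

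Of 34 other listed NRF2 targets, 28 were tested, and 13 rose, 0 fell and 15 did not pass, where 1.13% of all tested genes were called higher. The median log2 fold change of the 28 was 0.33, beside 0.03 over all genes tested. The list was chosen with earlier results of these data known, so the count and the median are a description. ME1, which oxidises malate and yields NADPH, rose by 1.17 and GCLM, a subunit of glutathione synthesis, by 0.77 on the log2 scale (limma adjusted p = 0.00126 and 0.0105). TXNRD1, thioredoxin reductase, rose by 0.63 (limma adjusted p = 0.00234) and GSTM3, a glutathione transferase, by 0.29 (limma adjusted p = 0.0219). Called members further included HMOX1, TKT, FTL, FTH1, PRDX1, TXN, SQSTM1, PIR and PANX2, with log2 fold changes from 0.36 to 1.27. Among those not called, BLVRB had 0.85, SRXN1 0.56 and GCLC 0.31, while TALDO1 had -0.28, BLVRA -0.09, TRIM16 -0.03 and ABCC1 -0.02. BLVRB and the called HMOX1 reached the 1 TPM minimum only through the treated libraries. The calls of GCLM and TXN were each lost when any of 3 single libraries was left out, those of HMOX1 and GSTM3 for 5 and that of PANX2 for 6.

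Regulators of NQO1 were not called. Of 13 tested genes of the KEAP1-NRF2 and AHR systems, 0 rose and 0 fell (median log2 fold change 0.12), with BACH1 at 0.30, MAFG at 0.29 and AHR, the dioxin receptor gene, at 0.18. Calls were few over all tested genes too, with 1.13% higher and 0.839% lower. AHR sets a battery of genes that also includes NQO1. Of 8 other genes of that battery 4 were tested and 0 were called (median 0.06), with TIPARP at 0.31 (limma adjusted p = 0.236) and AHRR at -0.31 (limma adjusted p = 0.263). CYP1A1, CYP1A2 and ALDH3A1, which belong to it, were under 1 TPM on average.

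**Figure D4:**
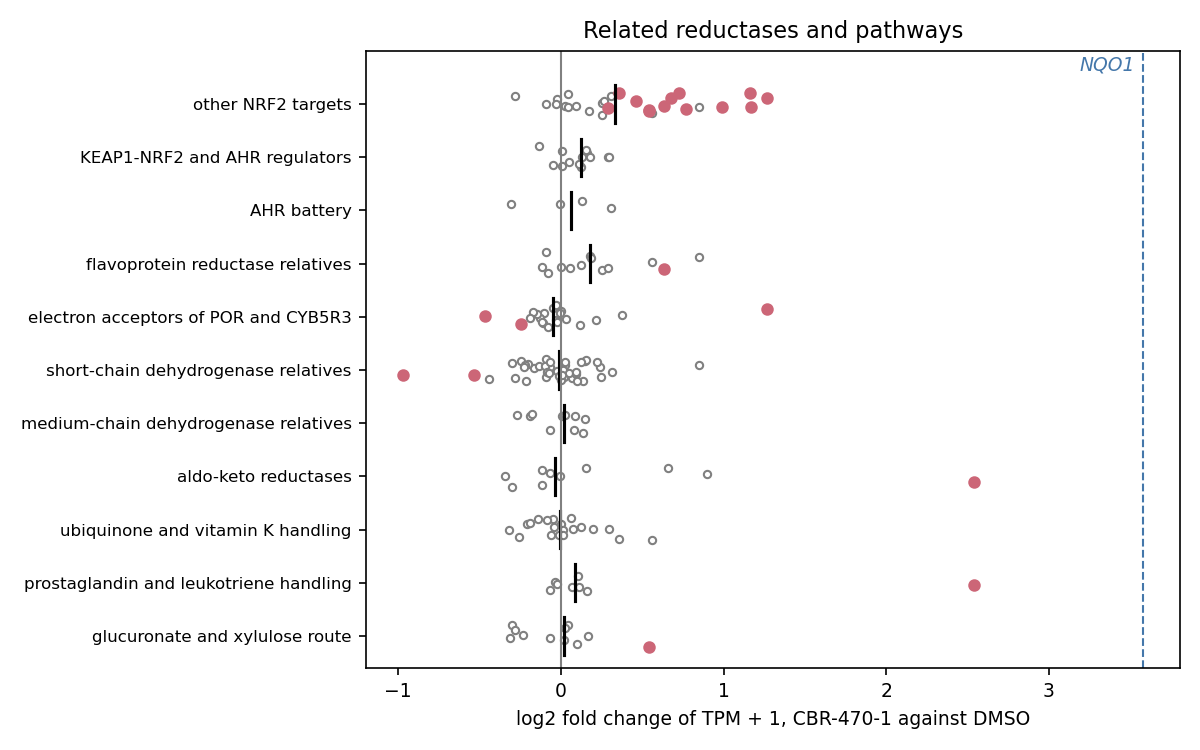
Log2 fold change of TPM + 1, CBR-470-1 against DMSO, for every tested gene (points) of 11 lists of related enzymes and pathways, with filled points for genes called by limma, black ticks for list medians and small random vertical offsets. The dashed line is NQO1 at 3.58; called genes of the other NRF2 targets lie on the higher side, and those of the short-chain dehydrogenases, DHRS2 and DHRS11, on the lower side.

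Among the short-chain dehydrogenases, the family of CBR1, CBR3, CBR4 and DCXR, 2 of 41 tested relatives fell and 0 rose (median log2 fold change -0.0092). The shares over all tested genes were 0.839% lower and 1.13% higher. DHRS2, a mitochondrial and nuclear dicarbonyl reductase, was at 4.67, 4.48 and 4.50 TPM in DMSO and at 1.83, 1.87 and 1.81 TPM in CBR-470-1. Its libraries varied little within each group and the groups were far apart. DHRS2 fell by 0.97 on the log2 scale (SE 0.0944, limma adjusted p = 0.00784), and without CBR-470-1 replicate 3 the adjusted p was 0.0547. DHRS11, a cytosolic 3-ketosteroid and carbonyl reductase, was at 7.24, 7.88 and 7.61 TPM in DMSO and at 4.99, 5.32 and 4.46 TPM in CBR-470-1. The groups did not overlap, and DHRS11 fell by 0.54 (SE 0.0894, limma adjusted p = 0.0378). Its call was lost when any of the 6 libraries was left out, with an adjusted p between 0.0749 and 0.128. Relatives with large values that did not pass were BLVRB (0.85, limma adjusted p = 0.0592), WWOX (-0.44) and HSD17B6 (0.31). BLVRB averaged 0.783 TPM in DMSO and reached the 1 TPM minimum only through the treated libraries.

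Of 10 tested medium-chain dehydrogenases, the family of PTGR1 and PTGR2, 0 were called (median 0.02), with RTN4IP1 at -0.27, VAT1 at -0.19 and ZADH2 at -0.18. Of 10 tested aldo-keto reductases, carbonyl reductases of a separate superfamily, AKR1C3 rose and 0 fell (median -0.04). For both families the shares over all tested genes were 1.13% higher and 0.839% lower. AKR1C2 had a log2 fold change of 0.90 and AKR1C1 one of 0.66 (limma adjusted p = 0.0847 and 0.0667). AKR1C2, at 0.664 TPM on average in DMSO, reached the 1 TPM minimum only through the treated libraries, as did AKR1C3. AKR1C1, AKR1C2 and AKR1C3 are very close in sequence, so reads could be split among them. AKR7A2 had -0.35.

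On a list of flavoprotein reductases and related enzymes, set beside POR and CYB5R3, 1 of 13 tested genes rose and 0 fell (median 0.18). For this list and the next, the shares over all tested genes were 1.13% higher and 0.839% lower. TXNRD1 was the called one, and its rise is counted among the NRF2 targets too. BLVRB, AIFM2 (0.56), which reduces ubiquinone at the plasma membrane, and TXNRD2 (0.29) did not pass (limma adjusted p = 0.0592, 0.0821 and 0.0899). BLVRB and AIFM2 averaged 0.783 and 0.648 TPM in DMSO and reached the 1 TPM minimum only through the treated libraries. The list also holds BLVRA and BLVRB, which are not themselves flavoproteins. BLVRB is also listed with the short-chain dehydrogenases and the NRF2 targets. Of 21 tested electron acceptors of POR and CYB5R3, HMOX1 rose, DHCR7 and SCD fell, and 18 did not pass (median -0.05). HMOX1, which breaks down haem with electrons from POR, went from 0.882 ± 0.361 to 3.54 ± 0.863 TPM (limma adjusted p = 0.0291). It reached the 1 TPM minimum only through the treated libraries. DHCR7 of cholesterol synthesis and the desaturase SCD had log2 fold changes of -0.47 and -0.25 (limma adjusted p = 0.0267 and 0.0348), and their calls were lost when any of 5 and of 6 single libraries was left out. FAXDC2, CYP20A1 and CYP2D6 had 0.37, 0.22 and -0.19 without passing.

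Of 20 tested genes of ubiquinone and vitamin K handling, whose quinones NQO1 can reduce, 0 were called (median -0.0031), with AIFM2 at 0.56, COQ10B at 0.36 and DHODH at -0.32. AIFM2 reached the 1 TPM minimum only through the treated libraries. Of 22 listed genes of prostaglandin and leukotriene handling, 8 were abundant enough to test. AKR1C3 rose, and FAAH (0.16), PTGES3 (0.11) and TBXAS1 (0.10) were among the 7 that did not pass. Both cyclooxygenase genes, PTGS1 and PTGS2, were under 1 TPM on average. Of 11 tested genes on the glucuronate and xylulose route of DCXR, TKT, transketolase, rose by 0.54 (limma adjusted p = 0.00234), and XYLB (-0.31), AKR1A1 (-0.30) and TALDO1 (-0.28) were among the 10 that did not pass. Beside these lists, 1.13% of all tested genes were called higher and 0.839% lower.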

How the data were processed

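PolyA-selected RNA of the 6 IMR32 libraries was sequenced, and the authors deposited 1 table of TPM values per gene symbol. Per the submitters' processing notes, bcl2fastq and Salmon 0.7.2 were used with build GRCh38; the annotation and the step from transcripts to genes are not stated there. Groups came from the sample titles. Log2(TPM + 1) was fitted for 13470 rows whose mean reached 1 TPM, with R 4.3.3 and limma 3.58.1 (group only, variance trend, two-sided, Benjamini-Hochberg over all rows, called at an adjusted p under 0.05); the code was tested on simulated data. Means and ratios are of linear TPM. Loci and overlaps come from GENCODE 29 and promoters from RefSeq.

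The members and gene lists were chosen with earlier results of these data known. The text names every member, called genes of 11 lists, up to 3 more per list by absolute change, genes beside members, and the 5 profiles nearest to NQO1. Rows were matched to gene models by name (34740) or RefSeq synonym (628), and 105 were not. Alternatives were pseudocounts of 0.1 and 5, no filter or 5 TPM, median centring, quantile normalization, rescaling without mitochondrial and ribosomal protein genes, no trend, robust empirical Bayes, a block for replicate number, leaving out each library, an adjusted p under 0.01, and a spline (5 degrees of freedom) correction for GC content and length.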

Additional observations from a re-analysis of the deposited data

How the results depend on the processing

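NQO1 stayed called as higher, and 0 other reductases were called, under all 18 alternatives. The log2 fold change of NQO1 ran from 2.88 with a pseudocount of 5 TPM to 3.81 with one of 0.1. Leaving out 1 library gave 3.46 to 3.66 (limma adjusted p between 7.62e-05 and 0.000699). PTGR1 turned to -0.0167 with quantile normalization, -0.014 with median centring and -0.0378 with the GC and length correction, and ranged from -0.121 to 0.147 without 1 library. POR turned to 0.0149 with the GC and length correction and ranged from -0.108 to 0.0694 without 1 library. TMEM120A turned to 0.0501 with that correction and POLDIP3 to -0.0151 with median centring. Ranges without 1 library also crossed 0 for TMEM120A (-0.0945 to 0.0492), POLDIP3 (-0.00245 to 0.0491), AHR (-0.0869 to 0.34), TBXAS1 (-0.0116 to 0.258), DOPEY2 (-0.264 to 0.0206), FAM161B (-0.00522 to 0.152) and RHBDD2 (-0.0727 to 0.155). The cause was not tested.

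Calls over all genes (152 higher, 113 lower) were 54 and 28 with no filter, 245 and 183 from 5 TPM, 51 and 32 with no variance trend, 16 and 6 at an adjusted p under 0.01, and 14 to 55 and 4 to 30 without 1 library. Lower calls were 237 with median centring, beside 124 higher, and 215 with the GC and length correction, beside 152 higher. The replicate numbers did not pair the samples, since deviations of same-numbered libraries correlated at -0.138, -0.0059 and -0.0318. With the replicate block 14 were higher and 3 lower, and NQO1 kept its call. The other NRF2 targets called higher were 7 with the block, 8 at an adjusted p under 0.01 and 8 to 12 without 1 library. Regulators called higher became 1 with the GC and length correction, flavoprotein reductases and related enzymes 2 there and from 5 TPM, and short-chain dehydrogenases 1 with that correction. Short-chain dehydrogenases called lower were 1 with no filter, from 5 TPM and at an adjusted p under 0.01, 0 with the block and 0 to 1 without 1 library. DHRS2 was not tested from 5 TPM. Electron acceptors called higher were 0 with no filter, with no trend, with the block and at an adjusted p under 0.01, and 0 to 1 without 1 library. They were 0 from 5 TPM as well, where HMOX1 was not tested. Electron acceptors called lower were 0 with no filter, no trend, the block and the stricter threshold, and 0 to 1 without 1 library. Aldo-keto reductases and prostaglandin genes called higher were 0 from 5 TPM, where AKR1C3 was not tested, and the former were 1 to 2 without 1 library.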
